A study of Homo sapiens with 6 samples.

Results

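ATAC-seq peak lists of the human colon cancer line HCT116 came from NuMA-depleted cells (3 libraries) and wild-type cells (3 libraries). Among the regions with a peak in every library, the 500 whose smallest fold over the libraries was largest were taken. In ATAC-seq a transposase cuts open DNA and inserts sequencing adapters, so open stretches collect fragments. NuMA belongs to the nucleoskeleton between divisions and gathers at spindle poles in mitosis, and the series is about its role in local chromatin structure. The labels give NuMA depletion as both genotype and treatment of the depleted libraries and wild type as both for the others. The titles of the depleted libraries hold the abbreviation AID, which the labels do not explain. How and for how long NuMA was depleted is not stated in them, nor whether replicate libraries are separate cultures. The p-values therefore reflect the spread among these libraries alone, and that spread may be technical.

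The 6 lists were merged wherever peaks overlapped by at least 1 bp, which gave 58926 regions, of which 17009 held a peak of every library. For each of these shared regions the highest fold in each library was taken. The fold, deposited by the authors for each peak, is a linear ratio. Its values fit the summit's fragment pileup plus 1, divided by the local background plus 1. The added 1 lowers the fold most where the background is near 1 fragment, so folds are not free of depth. The regions were ranked by the smallest of their 6 folds, and the first 500 were kept. They made up 2.94% of the shared and 0.849% of all merged regions. The members were thus chosen by the folds in all 6 libraries, so their folds, −log10 q values and backgrounds are given as a description. A fold belongs to its own list, and no common scale between lists is known. No gene annotation or genome sequence of build hg19 was used here, so the regions are named by position, and neither genes nor the identity of the cell line were checked.

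Peaks of very high fold can be of different kinds. Active promoters and enhancers leave long stretches of nucleosome-free DNA that the transposase enters easily. An assembled genome also holds fewer copies of ribosomal RNA genes and satellite repeats than a cell does, and reads from all copies then pile up on the few placed ones, as reads of mitochondrial DNA can on its nuclear copies. Such loci are commonly screened out of peak lists as artefact-prone. The labels do not say whether the authors did so.

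The lists held 38466, 45892 and 21783 peaks in NuMA-depleted replicates 1, 2 and 3, against 35502, 38685 and 32503 peaks in wild-type replicates 1, 2 and 3. The files give no read totals. Fragment pileups and backgrounds were therefore worked back from the fold and the p-value of each peak. The smallest background of a list, which grows with depth, was 1.04, 1.44 and 1.13 fragments in NuMA-depleted replicates 1, 2 and 3. It was 0.897, 0.748 and 0.767 fragments in wild-type replicates 1, 2 and 3, below all 3 NuMA-depleted values. NuMA-depleted replicate 3 nevertheless had the fewest peaks and the lowest median pileup of the members, 38 fragments. How far the smallest background follows depth in these lists was not tested.

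A few regions stood far above the others in fold. The smallest fold of a member ran from 28.7 at the top of the ranking to 9.43 at rank 500. It exceeded 15 in 4 members and 12 in 15, and lay under 10 in 259. The 3 members just inside the limit had smallest folds of 9.44, 9.44 and 9.43, and the 3 regions just outside it had 9.43 each, so the limit divides regions of nearly equal fold.

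**Figure D1:**
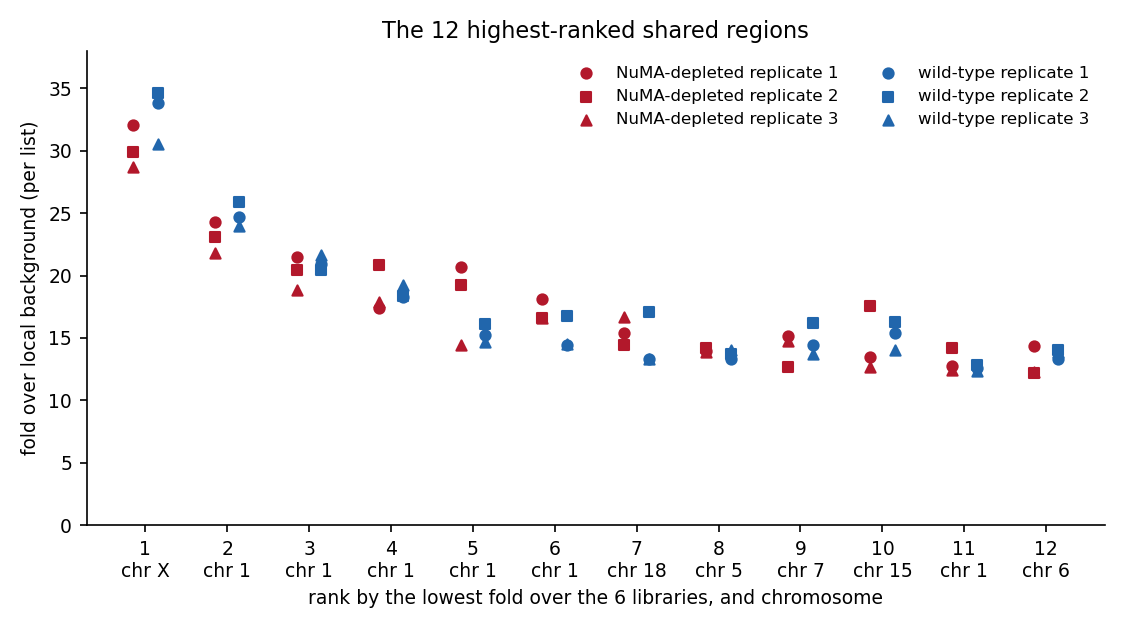
Fold over local background (y axis, linear ratio, each list's own scale) of the 12 members with the highest smallest fold (x axis, by rank and chromosome). Red points are NuMA-depleted and blue points wild-type libraries, and each shape is a replicate. Ranks 1 to 3 lay at 18.9 or above in every library, and from rank 5 on most values fell between 12 and 18.

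The highest-ranked member lay on the X chromosome at 108297383 to 108297830 (build hg19, like every position given). Its fold was 32.02, 29.9 and 28.7 in NuMA-depleted replicates 1, 2 and 3, against 33.8, 34.6 and 30.6 in wild-type replicates 1, 2 and 3. The ranges of the groups overlapped. Behind these folds stood pileups of 218, 236 and 158 fragments in NuMA-depleted and of 214, 221 and 228 in wild-type libraries. The 6 summits fell within 4 bp of each other, and the peak spanned 434 to 446 bp in every library.

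The second-ranked member, on chromosome 1 at 91852779 to 91853142, had the deepest pileups of the 500. They reached 844, 1144 and 635 fragments in NuMA-depleted replicates 1, 2 and 3, against 846, 928 and 963 in wild-type replicates 1, 2 and 3. The fold was 24.3, 23.1 and 21.8 in the NuMA-depleted and 24.6, 25.9 and 23.98 in the wild-type libraries. NuMA-depleted replicate 3 was lowest on both measures. The third, on chromosome 1 at 156186242 to 156186598, had folds of 21.5, 20.4 and 18.9 in NuMA-depleted and 20.9, 20.5 and 21.7 in wild-type libraries. It had pileups of 546, 642 and 439 fragments in NuMA-depleted libraries and of 399, 400 and 483 fragments in wild-type ones.

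These 3 members were the ones that fell inside windows of loci known to be prone to mapping artefacts. The windows, 20 in all, were drawn coarsely from general knowledge of the build, with the positions of these 3 already known. The windows around these 3 were entered as copies of ribosomal RNA sequence, which was not checked against a genome sequence. The 20 windows together held 3 of the 500 members and 7 of the 16509 other shared regions, counts from which nothing is read since the positions were known. None of the 6 windows over nuclear copies of mitochondrial sequence held a member. Of the 20 windows, 12 held no region shared by all libraries.

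Outside the windows the deepest pileups were those of rank 9, on chromosome 7 at 61968804 to 61969611, directly at the edge of the longest stretch of that chromosome without a peak in any list, which runs from 56264242 to 61968803. Its pileups were 377, 357 and 426 fragments in NuMA-depleted replicates 1, 2 and 3, against 275, 250 and 227 in wild-type replicates 1, 2 and 3. The groups did not overlap. Pileups are not scaled for depth, and the NuMA-depleted libraries had the higher smallest backgrounds. NuMA-depleted replicate 3, which had the highest pileup here, had the lowest median pileup of the members, 38 fragments. The part of depth in the difference at rank 9 was not tested. The background beside this peak was also higher, at 23.9, 27.2 and 27.9 fragments against 18.1, 14.5 and 15.6. The folds, which set pileup against background, overlapped at 15.2, 12.7 and 14.8 in NuMA-depleted and 14.5, 16.2 and 13.7 in wild-type libraries.

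The other members of the leading 12 had pileups of 30 to 145 fragments. Of the 12, 6 lay on chromosome 1. Rank 4, at 143913255 to 143913618, had folds of 17.4, 20.8 and 17.8 in NuMA-depleted and 18.3, 18.4 and 19.3 in wild-type libraries, from pileups of 48 to 104 fragments. Ranks 5 and 11 were on the same arm at 145139000 to 145139924 and at 144931923 to 144932818. These 3 lay within 1.38 to 2.60 Mb of the longest stretch without peaks on chromosome 1, from 121485423 to 142537465, which overlaps the centromere gap. With that gap placed coarsely from general knowledge of the build, the 3 lay 19.4 to 20.6 Mb from it. Rank 5 had folds of 20.7, 19.2 and 14.5 in NuMA-depleted and 15.3, 16.2 and 14.7 in wild-type libraries. Rank 6, at 206138016 to 206138406, was also on chromosome 1.

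The others of the 12 were ranks 7, 8, 10 and 12. Rank 7 lay on chromosome 18 at 14132091 to 14132706, with a summit that moved by 4 bp over the 6 lists. It was 1.37 Mb from the coarsely placed centromere gap of that chromosome. Rank 8 lay on chromosome 5 at 157158291 to 157158872 and had the most even folds of the 500, with a coefficient of variation of 2.13% over the libraries. Rank 10 was on chromosome 15 at 72963032 to 72963663 and rank 12 on chromosome 6 at 88299415 to 88300105. Over these 4, folds in single libraries ran from 12.2 to 17.6.

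The ratio of fold to −log10 q set the deep members apart from the rest of the 500. At a given fold, −log10 q is larger where the pileup and background are larger, so the ratio is lower there. Over the members the median ratio of the 6 libraries had a median of 0.347 and quartiles of 0.305 and 0.397. It was under 0.2 in 14 members and under 0.14 in 4 of these, namely ranks 2, 3, 9 and 1, with 0.0287, 0.0487, 0.0602 and 0.132. The highest ratios were 0.577 on chromosome 8 at 86572115 to 86572896, 0.541 on chromosome 3 at 178577517 to 178578276, 0.539 on chromosome 17 at 45569597 to 45570327 and 0.538 on chromosome 2 at 228913221 to 228914035. The first of these rested on pileups of 20 to 25 fragments and the other 3 on 21 to 51.

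**Figure D2:**
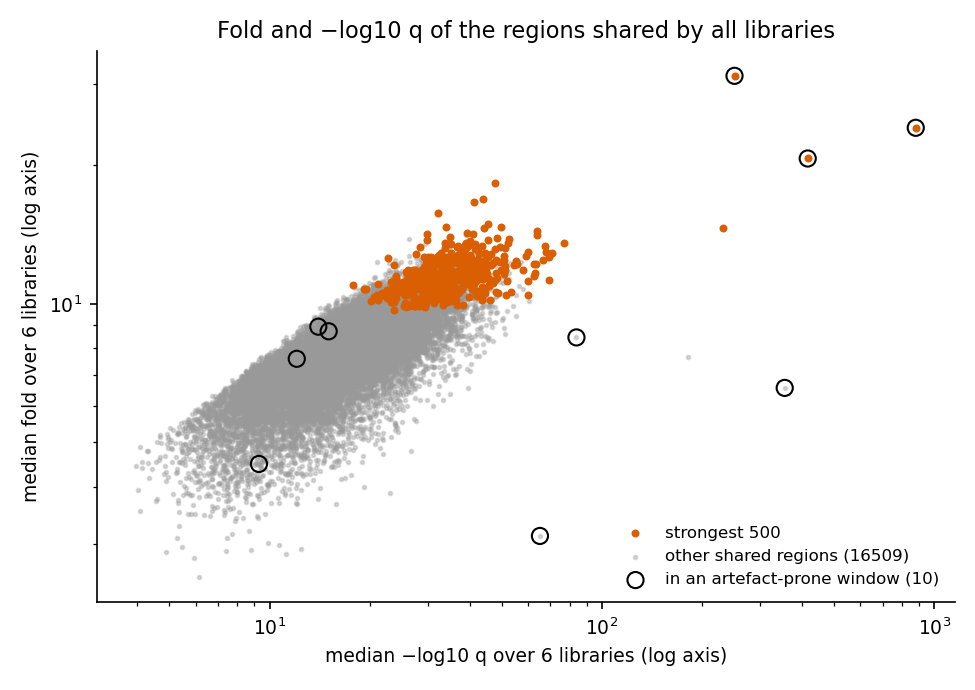
Median fold (y axis, log scale) against median −log10 q (x axis, log scale) over the 6 libraries for each region shared by all of them. Orange points are the 500 members, grey points the 16509 other shared regions, and circles mark regions inside artefact-prone windows. Of the members, 4 lie apart at the right, with ratios under 0.14, and 3 of these are circled.

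The ratio differed between lists more than between groups. Its median over the members was 0.316, 0.238 and 0.405 in NuMA-depleted replicates 1, 2 and 3, against 0.360, 0.345 and 0.371 in wild-type replicates 1, 2 and 3. The wild-type values lay inside the NuMA-depleted range. The order followed the −log10 q rather than the fold. The median −log10 q of the members was 38.03, 48.7 and 25.9 in the NuMA-depleted and 32.4, 37.1 and 30.9 in the wild-type libraries. The median fold was 11.7, 11.3 and 10.4 in the NuMA-depleted and 11.4, 12.6 and 11.2 in the wild-type libraries. In the other shared regions the median ratio was higher in every list, from 0.326 to 0.622 over the 6 libraries.

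Members combined higher pileups with somewhat higher backgrounds than the other shared regions. The median pileup of the members ran from 38 to 69.5 fragments over the 6 libraries, against 22 to 44 fragments in the other shared regions. The median background, divided by the smallest of its list, ran from 2.42 to 3.81 in the members and from 2.23 to 3.37 in the other shared regions. A background within 5% of the list's smallest was found in at most 0.6% of the members in any list, and in 0.497 to 2.79% of the other shared regions. The median over the 6 libraries of a member's background was at least 10 times the smallest of the list in 3 members, ranks 2, 3 and 9. In single libraries 5 members reached that level. By the same median, 116 of the 16509 other shared regions were at least 10 times the smallest of the list. The largest such median was 35.5 times the smallest of the list in the members and 114.3 times in the other shared regions. Backgrounds this high were thus not confined to the members.

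Rank depended on the list. Of the members, 174, 167 and 287 were among the 500 highest folds of NuMA-depleted replicates 1, 2 and 3, and 200, 165 and 163 among those of wild-type replicates 1, 2 and 3, counted within the shared regions. In all 6 libraries at once 28 members were among the 500 highest, and 65 members were among them in no library. NuMA-depleted replicate 3 gave the smallest fold in 211 of the 500 members (42.2%) and in 58.2% of the other shared regions. When the 500 were chosen again without that library, 270 (54.0%) of the members were kept. Without any other library, 435 to 491 were kept.

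Folds of a member varied less between libraries than those of the other shared regions. The coefficient of variation over the 6 libraries had a median of 9.79% and ran from 2.13 to 23.2%, beside a median of 15.9% in the others. It is low in part because a large smallest value was required, and the folds were not scaled between lists. The weakest of a member's 6 ranks within the shared regions had a median of 2428. The least even member, picked after its values were seen, was rank 110 on chromosome 17 at 44302712 to 44303161. It had folds of 17.8, 16.8 and 11.04 in NuMA-depleted replicates 1, 2 and 3, against 17.02, 18.6 and 10.6 in wild-type replicates 1, 2 and 3. Replicate 3 was the lowest library of each group here.

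Ranks of the fold within the shared regions, which are equally many in each list, were also set side by side between the groups. In 36 of the 500 members all 3 NuMA-depleted ranks were stronger than all 3 wild-type ranks, and in 8 all 3 were weaker. Over all 17009 shared regions the groups did not overlap in 6.74% with stronger and in 6.21% with weaker NuMA-depleted ranks. The folds chose the members, so nothing is read from these counts.

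The merged width of the members had a median of 880.5 bp and ran from 357 to 1627 bp, with quartiles of 746 and 1026 bp. In the other shared regions the median was 916 bp, the quartiles 727 and 1158 bp and the largest 3379 bp. The narrowest 4 were all on chromosome 1. They were ranks 3, 2 and 4, with 357, 364 and 364 bp, and rank 201 at 16947450 to 16947815, with 366 bp. Of the 16 members under 500 bp, 5 belonged to the 12 highest ranks and 7 lay on chromosome 1. The widest 4 were on chromosome 3 at 101442779 to 101444405 (1627 bp), chromosome 5 at 167125942 to 167127503 (1562 bp), chromosome 12 at 62653247 to 62654793 (1547 bp) and chromosome 10 at 118706408 to 118707942 (1535 bp). Median width grew along the ranking, from 599 bp in ranks 1 to 12 over 828 bp in ranks 13 to 100 to 902.5 bp in ranks 101 to 500.

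Within each list the members were nearly always 1 unbroken peak. A second peak in a member was listed by 1 library of each group, both times in rank 295 on chromosome 14 at 73924252 to 73925647. That made 0.2, 0 and 0% of members split in NuMA-depleted replicates 1, 2 and 3, and 0, 0.2 and 0% in wild-type replicates 1, 2 and 3. Of the other shared regions, 0.775 to 3.70% were split. The difference averaged -2.29 percentage points and had the same direction in 6 of 6 libraries (exact sign-flip permutation test over libraries, two-sided, p = 0.031, the smallest it can give, adjusted over 4 such comparisons 0.0417). Of the 500 regions just outside the limit 0 to 0.6% were split, and the members' difference from these was -0.2 percentage points (exact p = 0.0625). All 6 lists describe the same regions and a fold shares its pileup with the shape of its peak, so these tests of members against other shared regions say that the lists behave alike, not that shape is independent of fold.

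Summits of the members agreed closely between libraries. The median distance of a list's summit from the median of the 6 summits was 20.2, 21.5 and 14.5 bp in NuMA-depleted replicates 1, 2 and 3, and 18.8, 18.5 and 21 bp in wild-type replicates 1, 2 and 3. In the other shared regions it was 25.5 to 32.5 bp. Members were lower by 10.1 bp on average and in 6 of 6 libraries (p = 0.031, adjusted 0.0417, exact sign-flip test). Against the 500 regions just outside the limit the difference was -2.79 bp (exact p = 0.156). The range over all 6 summits had a median of 99 bp in members and 168 bp in the other shared regions. It exceeded 300 bp in 3.2% of members and 23.04% of the others.

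**Figure D3:**
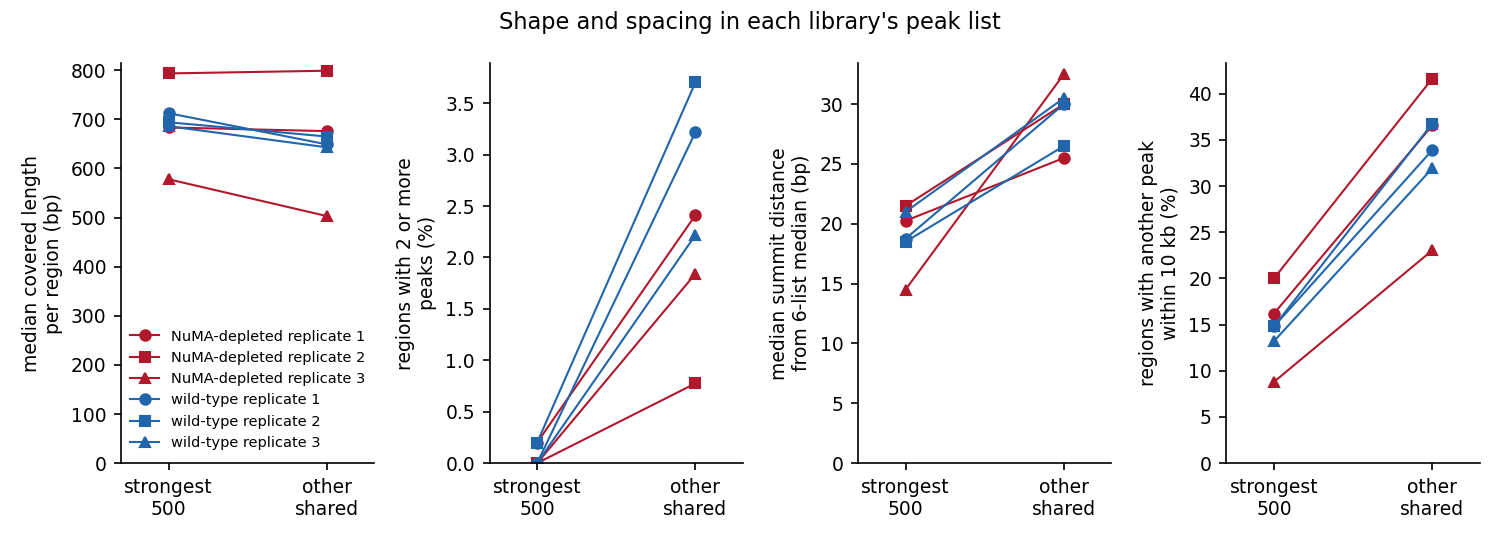
Values of the 500 members (left in each panel) and of the 16509 other shared regions (right) in each library's list, with a line per library, red for NuMA-depleted and blue for wild-type. Panels show the median covered length per region in bp, the percent of regions with 2 or more peaks, the median distance of a summit from the 6-list median in bp, and the percent with another peak of the same list within 10 kb. The last 3 measures were lower in the members in all 6 libraries, and the covered length was not, with NuMA-depleted replicate 2 going the other way.

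Covered length, the length under peaks in a region, did not pass the test between members and the other shared regions, and its sign and call changed with how the members were chosen. It had a median of 683.5, 793.5 and 578 bp in the members in NuMA-depleted replicates 1, 2 and 3, and of 712.5, 694 and 686 bp in wild-type replicates 1, 2 and 3. In the other shared regions it was 676, 799 and 503 bp and 649, 665 and 643 bp. Members were longer in 5 of 6 libraries, by 35.4 bp on average (exact sign-flip test, p = 0.0625, adjusted 0.0625). Against the 500 regions just outside the limit they were shorter, by 36.3 bp on average and in 6 of 6 libraries (exact p = 0.031). When the regions were ranked by the median fold the sign turned as well, to -20 bp (exact p = 0.281). With 1000 members the difference was 54.7 bp, and with regions ranked by the smallest −log10 q it was 170.5 bp (exact p = 0.031 each).

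The shape of the members was also compared between the groups, since NuMA is studied here for local chromatin architecture. The median covered length of the members averaged 685 ± 107.8 bp in NuMA-depleted and 697.5 ± 13.6 bp in wild-type libraries (SD, n = 3 each), a difference of -12.5 bp (exact permutation test, two-sided, p = 0.7). With 3 libraries against 3 that test cannot go below 0.1. Without NuMA-depleted replicate 3 the difference turned to 41.0 bp (exact p = 0.6). Without NuMA-depleted replicate 2 it was -66.8 bp (exact p = 0.1, again the smallest the test can give). The distance of summits from the common median averaged 18.8 ± 3.73 bp in NuMA-depleted and 19.4 ± 1.38 bp in wild-type libraries (SD, n = 3 each), a difference of -0.667 bp (exact p = 0.9). Without NuMA-depleted replicate 3 it turned to 1.46 bp and without wild-type replicate 3 to 0.125 bp. The percent of split members averaged 0.0667 in both groups (difference 0, exact p = 1). None of the 3 passed adjustment, with adjusted p = 1 for each.

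Region by region, the covered length was tested over all 17009 shared regions with limma, on the log2 scale and centred on each library's median. No member passed an adjusted p of 0.05, and the smallest adjusted p of a member was 0.374. Over all shared regions 3 (0.0176%) passed as longer in NuMA-depleted libraries and 0 (0%) as shorter, and leaving out 1 library moved the total between 0 and 5. At an unadjusted p under 0.05 there were 15 members (3.0%), against 7.31% of all shared regions. The member with the smallest p, named after its value was seen, was rank 459 on chromosome 3 at 140718787 to 140719734. Its peak covered 919, 912 and 709 bp in NuMA-depleted replicates 1, 2 and 3, against 383, 496 and 399 bp in wild-type replicates 1, 2 and 3. The groups did not overlap, with a log2 difference of 1.001 (SE 0.205) and an adjusted p of 0.374 by limma, which over the other settings tried stayed above 0.05 for every member (smallest 0.278). Covered lengths did not overlap between the groups in 24 members with longer and 27 with shorter NuMA-depleted values, or 4.8% and 5.4%, beside 6.17% and 6.30% of all shared regions. These shares were near those of all shared regions, and nothing is read from them.

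The members stood apart from other peaks. Another peak of the same list lay within 10 kb of 16.2, 20 and 8.8% of them in NuMA-depleted replicates 1, 2 and 3, and of 14.8, 14.8 and 13.2% in wild-type replicates 1, 2 and 3. In the other shared regions the share was 23.04 to 41.6%. Members were lower by 19.3 percentage points on average and in 6 of 6 libraries (exact sign-flip test, p = 0.031, adjusted 0.0417), and also against the 500 regions just outside the limit, by 4.40 points (exact p = 0.031).

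For peaks of the same list the difference was -5.76 percentage points within 2 kb and -13.8 within 50 kb (exact sign-flip test, p = 0.031 each). In bins of the gap to the nearest merged region of any list, members fell short most under 5 kb. A merged region of any list lay within 5 kb of 15 members (3.0%), against 23.8% of the other shared regions. Between 5 and 10 kb the shares were 22% and 26.0%, and between 10 and 20 kb 24.2% and 24.4%. At 20 to 50 kb members had more, with 36% against 19.7%. The local background that divides the fold is taken from the same surroundings, so spacing is not independent of how the members were chosen. The window over which the caller took that background is not known from the sources used, and its part in the spacing was not tested. Further out, a peak of the same list between 10 and 100 kb away was found for 76.6 to 92.6% of members and 87.0 to 96.7% of the other shared regions over the 6 libraries, lower in members in 6 of 6 (mean difference -7.02 points, exact p = 0.031).

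**Figure D4:**
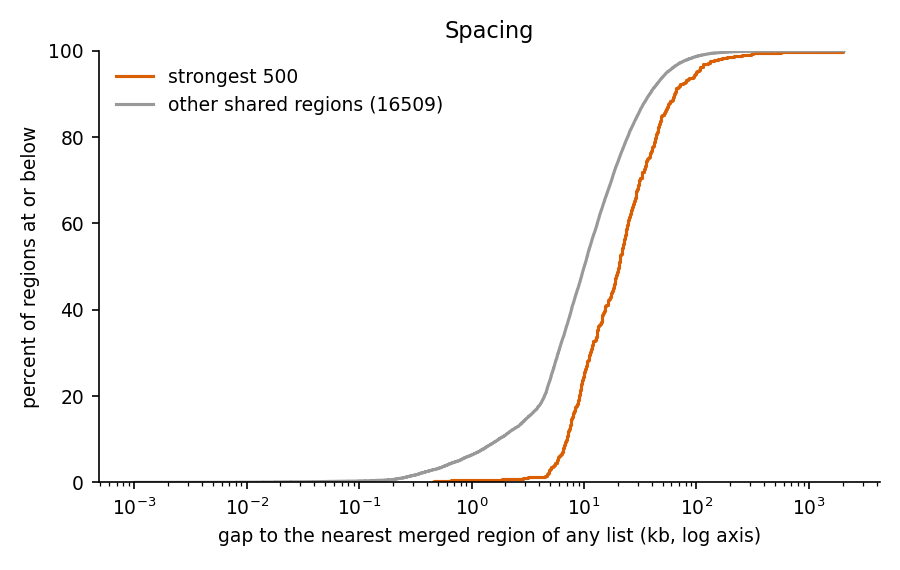
Cumulative percent of regions (y axis) by the gap to the nearest merged region of any list (x axis, kb, log scale), for the 500 members (orange) and the 16509 other shared regions (grey). The orange curve stays near 0 up to about 5 kb, where 3.0% of members and 23.8% of the others have a neighbour, and its median is 20.3 kb against 10.1 kb.

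On a wider scale the surroundings of members were also sparser. Within 500 kb on either side a member had a median of 24.5 other regions, against 33 for the other shared regions. The gap to the nearest region exceeded 100 kb in 25 members (5.0%) and in 1.33% of the others. Gaps between members are given as a description, without a comparison set of equal size. The gap between neighbouring members on a chromosome had a median of 2.82 Mb, and 26 of 477 such gaps were under 100 kb. The closest pair, 9805 bp apart, lay on chromosome 20 at 18477430 to 18478015 and at 18487821 to 18488785. The next pairs were on chromosome 15 at 49447217 to 49448596 and 49462149 to 49462759, with 13552 bp between them, and on chromosome 3 at 131080265 to 131081162 and 131100147 to 131101061, with 18984 bp.

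Closeness to centromeres was measured in 2 ways. The longest stretch of a chromosome without a peak in any list was taken in place of the assembly gap, and 50 members (10%, exact 95% binomial interval 7.51 to 12.97%) lay within 5 Mb of it, against 6.78% of the other shared regions. On 8 of the 23 chromosomes that stretch did not overlap the centromere gap. With coarse positions of the gaps, written from general knowledge of the build to 0.1 Mb, 37 members (7.4%) lay within 5 Mb, against 5.49% of the other shared regions. Within 1 Mb of a gap there were 8 members (1.6%), against 0.509%. Regions are not replicates, the interval covers counting error only, and these shares were not tested.

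The 8 members within 1 Mb of a centromere gap were of mixed kind. The 5 closest were rank 38 on chromosome 5 at 49598621 to 49599409, rank 133 on chromosome 3 at 93698717 to 93699451, rank 64 on chromosome 20 at 26188833 to 26189354, rank 321 on chromosome 3 at 93781437 to 93782540 and rank 280 on chromosome 20 at 25676935 to 25677811. Their distances ran from 0.199 to 0.722 Mb. Rank 64 lay 0.000897 Mb from the longest stretch without peaks of chromosome 20 and had a low ratio of fold to −log10 q, 0.197, from pileups of 71 to 111 fragments. The other 4 had ratios of 0.275 to 0.411, within or near the quartiles of all members. Rank 9 on chromosome 7, at 0.869 Mb, was the deepest of the 8, with a ratio of 0.0602. Near the longest stretches there were further members on chromosome 2 at 75937534 to 75938303, directly at the edge, chromosome 16 at 46654632 to 46655621 and chromosome 17 at 21029893 to 21030794. The stretch on chromosome 2 was among the 8 that did not overlap a centromere gap.

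The members were spread unevenly over the chromosomes. Chromosome 1 held 47 of them (9.4%), beside 10.1% of the other shared regions. Chromosome 22 held 1 member of its 354 shared regions (0.282%), chromosome X 4 of 339 (1.18%) and chromosome 19 12 of 804 (1.49%), where 2.94% of all shared regions were members. On chromosome 15, 26 of 561 were members (4.63%), and on chromosomes 5, 7 and 10 the shares were 4.40%, 4.39% and 4.39%. These shares describe the regions and were not tested.

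**Figure D5:**
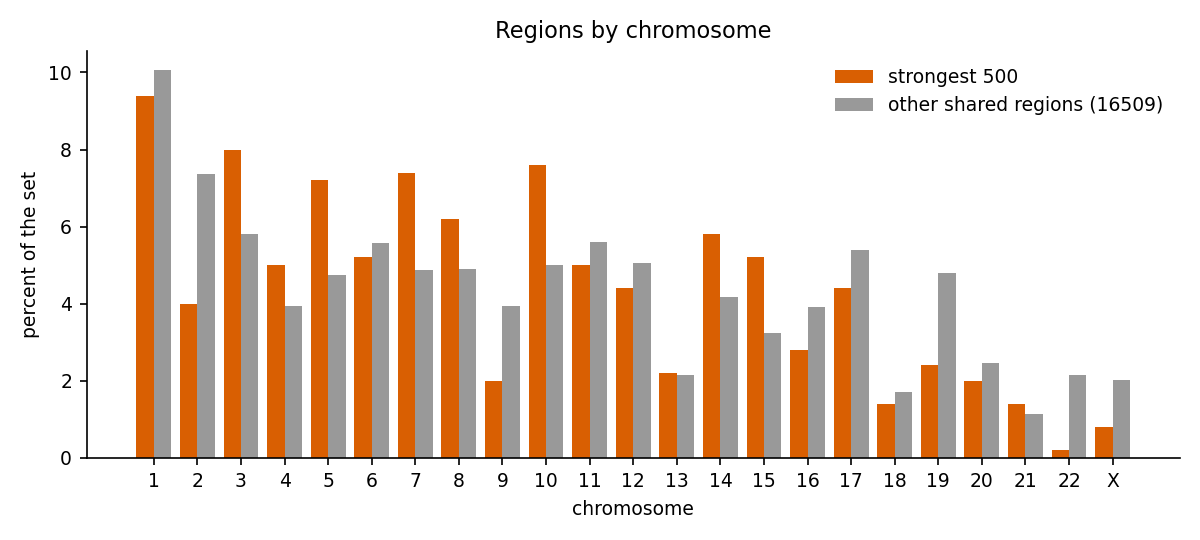
Percent of the 500 members (orange bars, left) and of the 16509 other shared regions (grey bars, right) on each chromosome (x axis). The orange bars are the lower ones on chromosomes 2, 9, 19, 22 and X, among others, and chromosome 22 holds 1 member.

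The choice of fold over −log10 q changed which chromosomes led. Ranked by the smallest −log10 q, 236 of the 500 members would have been kept. The 500 then held 89 regions of chromosome 14, where the fold ranking has 29, and 48 of chromosome 17 in place of 22 and 51 of chromosome 8 in place of 31. They held 22 regions of chromosome 3 in place of 40 and 10 of chromosome 15 in place of 26. Chromosomes 14 and 17 also had the highest local backgrounds at the other shared regions, with medians of 4.02 and 3.94 times the smallest of the list. The median over all chromosomes was 3.02, and chromosome X had the lowest, 1.69. Not every chromosome went the same way. Chromosome 19 came next with 3.89 but held 10 regions by −log10 q in place of 12, and chromosome 8, which gained, had 3.31. The part of these backgrounds in the ranking was not tested. On chromosome 22 the count was 2 by −log10 q, 6 by the median fold and 5 without NuMA-depleted replicate 3. On chromosome 19 it was 10, 19 and 14 in the same order. The counts of both chromosomes thus depend on how the 500 were chosen.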

How the data were processed

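ATAC-seq peak lists of 3 NuMA-depleted and 3 wild-type HCT116 libraries were used, grouped by the labelled genotype. Per the submitters' processing notes, Trim Galore, Bowtie2 2.4.1 and Picard were used with build hg19; the peak names hold the word macs2, and no source used here gives the caller's version or settings. Each list holds, as the authors deposited it, the interval and summit of a peak, its fold over local background (a linear ratio, whose values fit pileup plus 1 over background plus 1), its p-value and q-value as −log10, and a score that was not used.

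Lists were merged at an overlap of 1 bp and the 500 shared regions with the largest smallest fold were taken, ties by chromosome and start. Pileup and background per summit were recovered from fold and −log10 p under a Poisson model with that added 1, and for 100% of peaks a whole pileup gave the deposited −log10 p to within 0.01. Read depth was not analysed here, so precision rests on the number of libraries. Covered length was tested with limma 3.58.1 (R 4.3.3) on log2 values over all shared regions, with Benjamini-Hochberg adjustment. This step was also run on simulated widths, with noise drawn independently for each region and library. No effect common to a library's regions was simulated, and no result given here rests on that run. Single values were tested by exact permutation in Python 3.11.15 with scipy 1.17.1, statsmodels 0.14.6, pandas 2.3.3 and numpy 2.4.6, and figures were drawn with matplotlib 3.10.9.

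Members, tests and region lists were chosen with earlier results of these data known. Regions were named by rank (12), width (4 at either end), ratio (4 at either end), artefact-prone windows, closeness to centromeres (5), the limit (3 on either side) and closest pairs (3); others are marked where named. The windows and the coarse centromere gaps came from general knowledge of hg19. The comparisons of summits and of split peaks with other shared regions, of the regions just outside the limit, of peaks 10 to 100 kb away, of the coarse gaps and of members chosen again were added after the data were seen. The alternatives changed the number of members, the ranking value, the merging, a −log10 q minimum, the chromosomes, the distances, the width scale and the libraries. Counts by gene lists, cell line markers and sequences were left out, since no hg19 reference was used here.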

Additional observations from a re-analysis of the deposited data

How the results depend on the processing

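The covered length of members minus other shared regions was 54.7 bp with 1000 members and 170.5 bp when regions were ranked by the smallest −log10 q (exact p = 0.031 each). It turned to -20 bp when ranked by the median fold (exact p = 0.281) and to -36.3 bp against the 500 regions just outside the limit. Leaving out 1 library gave 27.5 to 43.6 bp. Ranking by −log10 q also moved the median ratio of fold to −log10 q to 0.278 and the median merged width to 1003.5 bp. Against the regions just outside, the summit difference was -2.79 bp (exact p = 0.156) and the split difference -0.2 percentage points (exact p = 0.0625). The cause of these changes was not tested.

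With 5 libraries the exact sign-flip test cannot go below 0.0625, so leaving out any library ended those calls by construction. The neighbour difference then ran from -20.4 to -18.8 percentage points, the summit difference from -11.1 to -8.5 bp and the split difference from -2.60 to -2.05 points. Between NuMA-depleted and wild-type libraries, leaving out 1 library gave a covered length difference of -66.8 to 41.0 bp, a summit difference of -2.04 to 1.46 bp and a split difference of -0.0667 to 0.0667 points. The covered length difference reversed without NuMA-depleted replicate 3 (41.0 bp), and the summit difference reversed without it (1.46 bp) and without wild-type replicate 3 (0.125 bp). The limma count over all shared regions was 0 without centring and 0 to 5 when 1 library was left out.

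The share of members near the longest stretch without peaks was 2.2% within 1 Mb and 16.6% within 10 Mb, and 7.4% lay within 5 Mb of the coarse centromere gaps. Within-group deviations of covered length in same-numbered libraries had correlations of 0.00256, -0.00152 and -0.0114. Covered length thus showed no pairing by number. These values cannot tell whether same-numbered libraries were prepared together, which the labels do not state. With a replicate block the covered length difference was -12.5 bp (exact p = 0.75), the summit difference -0.667 bp (exact p = 1), the split difference 0 (exact p = 1) and the limma count 1. Peak lists without read depth, 3 libraries a group and positions known to 0.1 Mb for centromeres limit all of these values.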
